A study of Mus musculus with 10 samples.

Results

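Values are described here for 7 members, genes for collagens that do not build the thick fibrils of connective tissue themselves: Col6a1, Col6a2 and Col6a3, which encode the 3 main chains of collagen VI, Col8a1, which encodes a chain of the network-forming collagen VIII, and Col12a1, Col14a1 and Col16a1, which encode fibril-associated collagens (FACITs). They were chosen by name: a probe set, the group of short probes that reports 1 transcript on the array, was a member if the platform annotation gave it one of these 7 symbols. This found 15 of the 45101 probe sets, with 4 for Col12a1, 3 each for Col14a1 and Col8a1, 2 for Col6a2 and 1 each for Col6a1, Col6a3 and Col16a1. Each gene was represented by its brightest probe set over the 10 arrays, and all 7 members were among the 12568 genes tested, of 18193 with a named probe set. In 7 of 7 the representative lay above the array median on every array.

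The tissue was distal colorectum of C57BL/6J mice, cut about 1 cm above the anus and measured as total RNA on Affymetrix arrays, 1 array a sample. Unirradiated Pdgfc+/+ mice (wild type, n = 2) and unirradiated Pdgfc-/- mice (knockout, n = 2) were set against Pdgfc+/+ mice (n = 3) and Pdgfc-/- mice (n = 3) that had been given 25 Gy of γ-rays to a local field (2.14 Gy/min, under chloral hydrate) and were killed 8 weeks later. Pdgfc encodes a secreted growth factor that acts on fibroblasts and other mesenchymal cells, and the knockout is given in the labels as a genotype of the mouse, with no cell type or promoter attached to it. The sources used here do not give how the allele was made, the ages of the mice or whether the unirradiated mice were anaesthetised. The design asks whether irradiation changed the levels of these collagens and whether the loss of Pdgfc altered either the level or the change. The labels call the replicates biological, but do not tie them to litters or days.

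Collagen VI is assembled inside the cell from an alpha 1, an alpha 2 and an alpha 3 chain. The units pair up, and after secretion join end to end into beaded microfilaments around cells, where they link basement membranes to the fibrils of the interstitium. Collagen VIII forms hexagonal networks and is known from vessel walls. FACIT collagens XII, XIV and XVI lie on the surface of other collagen assemblies and join them to proteoglycans and other partners. In the gut wall collagen VI surrounds the crypts and the muscle, and fibroblasts make most of it.

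The promoters of the 3 collagen VI chains are shown because all 3 were higher after irradiation in both genotypes. That of Col16a1 is shown because its level was not called by limma in any comparison. Each run is the 250 bases before an annotated transcription start, 5′ to 3′ on the gene's own strand, from RefSeq on GRCm38.p6, and capitals mark matches to the motifs searched. Such a window was found for 5 of the 7 members. The Col6a1 window lies at chr10:76726045-76726294 on the minus strand, that before the more upstream of 2 annotated Col6a2 starts at chr10:76623631-76623880 on the minus strand, that of Col6a3 at chr1:90843972-90844221 on the minus strand and that of Col16a1 at chr4:130047590-130047839 on the plus strand.
Col6a1: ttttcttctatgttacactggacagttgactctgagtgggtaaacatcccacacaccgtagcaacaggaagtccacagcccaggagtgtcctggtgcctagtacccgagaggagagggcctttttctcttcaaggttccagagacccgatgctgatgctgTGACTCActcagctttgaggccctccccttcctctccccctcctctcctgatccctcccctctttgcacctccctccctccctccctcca
Col6a2: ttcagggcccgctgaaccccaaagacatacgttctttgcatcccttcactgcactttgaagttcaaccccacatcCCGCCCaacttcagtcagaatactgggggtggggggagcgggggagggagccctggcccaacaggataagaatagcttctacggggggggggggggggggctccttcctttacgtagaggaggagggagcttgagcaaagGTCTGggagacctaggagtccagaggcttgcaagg
Col6a3: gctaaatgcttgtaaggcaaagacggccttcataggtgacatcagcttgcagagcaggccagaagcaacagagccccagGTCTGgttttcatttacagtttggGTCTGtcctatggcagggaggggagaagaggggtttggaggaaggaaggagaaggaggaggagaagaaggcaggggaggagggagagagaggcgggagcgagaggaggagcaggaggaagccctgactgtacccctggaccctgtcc
Col16a1: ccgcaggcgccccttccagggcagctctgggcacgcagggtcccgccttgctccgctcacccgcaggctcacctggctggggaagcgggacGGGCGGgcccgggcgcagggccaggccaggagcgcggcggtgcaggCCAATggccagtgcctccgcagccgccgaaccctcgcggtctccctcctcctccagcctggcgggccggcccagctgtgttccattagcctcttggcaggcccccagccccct

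The motifs searched, on both strands, were TATAAA (the TATA box), CCAAT (the CCAAT box), GGGCGG (the GC box), CAGAC (a form of the SMAD box) and TGANTCA (the AP-1 site). The capitals in Col6a1 are an AP-1 match from base 90 to base 84 before the start, a motif found in 6.75% of 32851 promoter windows of that length. Col6a3 held 2 matches to CAGAC, and the Col6a2 window shown held 1 such match and 1 GC box. The window before the other Col6a2 start held 3 GC boxes, 2 of them overlapping, and 0 matches to CAGAC, with 64.4% G and C. The share of all windows was 42.2% for CAGAC and 32.7% for the GC box. Col16a1 held 1 CCAAT and 1 GC box (CCAAT in 33.8% of windows), and the Col8a1 window, at chr16:57754738-57754987, held 4 GC boxes and 1 CAGAC. None of these windows held TATAAA, which 12.4% of all windows did. No motif was found in all 3 collagen VI windows printed. The windows of Col6a1, Col6a2 (the one shown), Col6a3, Col8a1 and Col16a1 had 56.0%, 59.2%, 57.2%, 60.8% and 75.6% G and C, against a median of 52.4% over all windows. Col6a2 and Col6a1 are neighbours on chromosome 10, with the 2 long non-coding genes Gm51774 and Gm35608 and no protein-coding gene between them, whereas Col6a3 lies on chromosome 1.

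Some properties of the arrays bear on every value below. The deposited log2 values had array medians of 6.64 to 7.18. Pdgfc itself lay at 7.005 to 7.501 on the unirradiated wild-type arrays and 8.56 to 8.75 on the irradiated ones, and at 5.62 to 6.42 and 6.26 to 7.15 on the knockout arrays; where its probe set lies relative to the deleted part is not known here. All 10 colonocyte markers, among them the chloride exchanger gene Slc26a3, lay above the array median on all 10 arrays. Xist and the Y-linked transcripts gave a female pattern on all 3 irradiated wild-type arrays and on 1 of 3 irradiated knockout arrays (replicate 1), and a male pattern on the other 6. Sex pattern and irradiation therefore cannot be told apart within the wild type, and in the knockout the male-pattern arrays allow a comparison of 2 irradiated with 2 unirradiated samples. Values are given for that comparison beside the results. The log2 difference between the 3′ and 5′ control probe sets of Gapdh, a measure of RNA integrity, was -0.54 to -0.35 on the 6 irradiated arrays and -0.32 to 0.02 on the 4 unirradiated ones, while that of Actb overlapped between them, from 0.44 to 0.58 and from 0.35 to 0.66. Their part in the results was not tested.

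All 3 collagen VI chains were higher after irradiation in both genotypes. Col6a1 (alpha 1 chain) read 9.71 and 9.97 on the unirradiated wild-type arrays and 10.99, 10.94 and 10.94 on the irradiated ones. In the knockout it read 10.14 and 10.10 without irradiation and 11.04, 10.75 and 11.08 after it. Every irradiated array lay above every unirradiated one. The rise was 1.11 log2 units in the wild type (SE 0.14, limma adjusted p = 0.0010), a 2.16-fold difference, and 0.84 in the knockout (SE 0.14, limma adjusted p = 0.0038).

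Col6a2 encodes the alpha 2 chain. Its representative probe set read 10.07 and 10.19 on the unirradiated wild-type arrays and 11.36, 10.99 and 11.29 on the irradiated ones. The unirradiated knockout arrays stood at 9.76 and 10.15 and the irradiated ones at 11.13, 11.10 and 11.35. Irradiated and unirradiated arrays did not overlap in either genotype. Col6a2 rose by 1.08 log2 units in the wild type (SE 0.17, limma adjusted p = 0.0025) and by 1.24 in the knockout (SE 0.17, limma adjusted p = 0.0013).

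Col6a3 encodes the alpha 3 chain, the longest of the 3 and the source of a fragment called endotrophin. The unirradiated arrays were nearly level, at 10.04 and 10.08 in the wild type and 10.06 and 10.05 in the knockout. After irradiation the wild-type arrays read 11.61, 11.28 and 11.51 and the knockout arrays 11.26, 10.86 and 11.30. All 6 irradiated arrays were higher than all 4 unirradiated ones, with the lowest of the 6 in the knockout. Col6a3 rose by 1.41 log2 units in the wild type (SE 0.16, limma adjusted p = 6.4e-04) and by 1.09 in the knockout (SE 0.16, limma adjusted p = 0.0020). In a bulk sample, more cells that express a gene and more RNA of it per cell cannot be told apart, here and for every gene below.

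Col8a1, the collagen VIII chain, was the member with the most uneven irradiated wild-type arrays after Col12a1. It read 8.09 and 7.90 on the unirradiated wild-type arrays and 9.02, 8.35 and 9.50 on the irradiated ones. The knockout arrays read 7.65 and 7.41 without irradiation and 8.77, 8.87 and 8.86 after it. The groups did not overlap, but the SD of the irradiated wild-type arrays was 0.58 against 0.051 in the irradiated knockout. Col8a1 rose by 1.31 log2 units in the knockout (SE 0.29, limma adjusted p = 0.0118). In the wild type the rise was 0.96 (SE 0.29, limma adjusted p = 0.0390), and 15 of 22 alternative settings ended that call, quantile normalization among them (0.72, limma adjusted p = 0.117).

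Among the FACIT collagens, Col14a1 had the largest change of the 7 members in both genotypes. Col14a1 encodes collagen XIV, which binds the fibril surface and decorin. It read 8.03 and 8.27 on the unirradiated wild-type arrays and 10.14, 9.98 and 10.67 on the irradiated ones. In the knockout the values were 7.52 and 7.88 without irradiation and 10.15, 9.91 and 9.74 after it. The lowest irradiated array lay more than 1 log2 unit above the highest unirradiated one. Col14a1 rose by 2.11 log2 units in the wild type (SE 0.23, limma adjusted p = 5.6e-04), a 4.33-fold difference, and by 2.23 in the knockout (SE 0.23, limma adjusted p = 3.2e-04), a 4.68-fold difference.

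Col12a1 encodes collagen XII, the FACIT that tenascin-X and decorin bind. It read 8.22 and 8.52 on the unirradiated wild-type arrays and 10.54, 9.05 and 9.55 on the irradiated ones, a range wider than that of any other member in this group. The unirradiated knockout arrays stood at 8.12 and 7.27 and the irradiated ones at 9.46, 9.22 and 9.81. The groups did not overlap in either genotype. Col12a1 rose by 1.34 log2 units in the wild type (SE 0.41, limma adjusted p = 0.0390) and by 1.80 in the knockout (SE 0.41, limma adjusted p = 0.0127). The wild-type call was lost under 11 of 21 alternatives, and the knockout call without unirradiated knockout replicate 2 (1.38, limma adjusted p = 0.112).

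Col16a1 did not pass the test in any comparison. It encodes collagen XVI, a minor FACIT that associates with fibrils or with fibrillin microfibrils, depending on the tissue. The unirradiated arrays read 8.87 and 8.53 in the wild type and 8.89 and 8.85 in the knockout. The irradiated arrays read 8.88, 9.21 and 9.24 in the wild type and 8.90, 8.67 and 9.05 in the knockout. Irradiated and unirradiated knockout arrays overlapped, while the lowest irradiated wild-type array stood just above the highest unirradiated one. The difference was 0.41 in the wild type (95% confidence interval -0.0099 to 0.83, limma adjusted p = 0.14) and 0.0015 in the knockout (-0.42 to 0.42, limma adjusted p = 0.996). The intervals leave room for a change of up to 0.83 log2 units in the wild type and 0.42 in the knockout.

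Counted together, 6 of the 7 members were higher and 0 lower after irradiation in each genotype. Of all genes tested, 15.8% were higher in the wild type and 14.0% in the knockout at the same threshold of 0.05. The members' median change was 1.11 log2 units in the wild type and 1.24 in the knockout, against 0.07 and 0.01 over all genes tested. With both genotypes averaged, the same count of 6 of 7 stood against 23.1% of all genes. With the sex pattern described above as a covariate, 4 of 7 were called higher in that comparison, as were 622 of 12568 genes. Of the 6, Col8a1 (limma adjusted p = 0.080) and Col12a1 (limma adjusted p = 0.090) were then not called. In 6 of 7 members all 6 irradiated arrays lay above all 4 unirradiated ones, as they did for 15.4% of all genes tested.

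**Figure D1:**
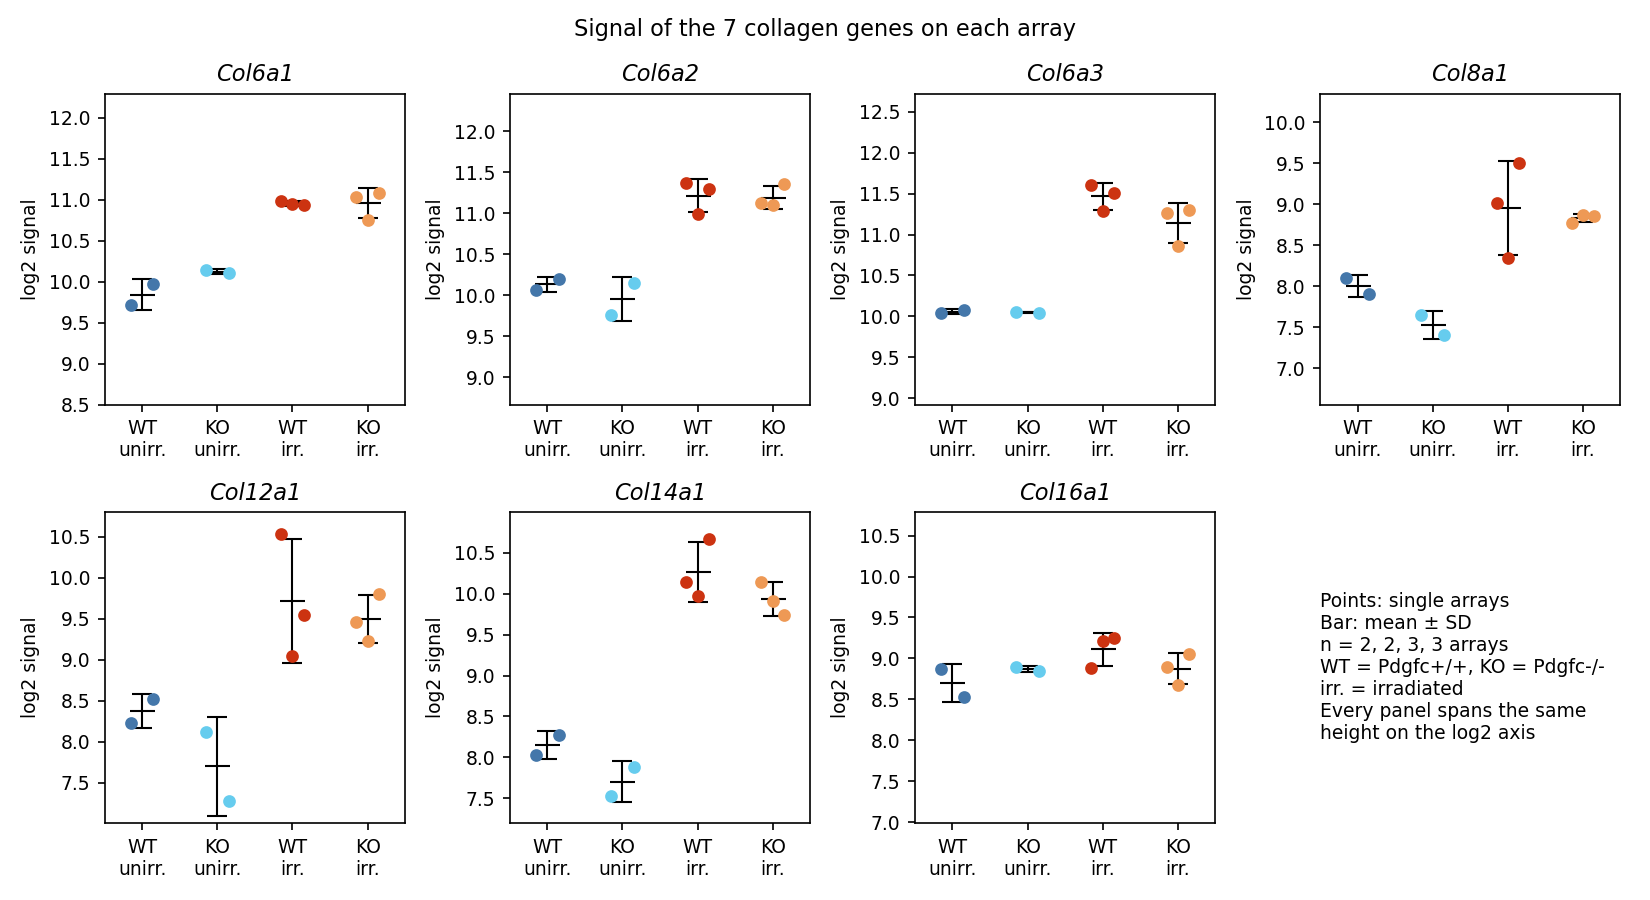
Log2 value of each of the 7 members on each of the 10 arrays, by group, with a panel for each gene, where points are arrays and bars are the group mean ± SD (n = 2 unirradiated, n = 3 irradiated). In 6 of the 7 panels all irradiated arrays sit above all unirradiated arrays of both genotypes; the exception is Col16a1.

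On the male-pattern knockout arrays alone, 2 irradiated against 2 unirradiated, the differences were 0.80 for Col6a1, 1.27 for Col6a2, 1.03 for Col6a3, 1.34 for Col8a1, 1.82 for Col12a1, 2.12 for Col14a1 and -0.01 for Col16a1. With the sex pattern as a covariate, 6 of 7 members were again called higher in the knockout, as were 1114 of 12568 genes. The covariate's effect rests on irradiated knockout replicate 1 set against the 2 male-pattern arrays of that group. In the wild type 0 of 7 were called under it, with limma adjusted p from 0.108 to 0.718. Only 16 of all 12568 genes tested were called in the wild type under this covariate. There the wild-type changes of the 6 called members lay between 0.99 and 1.79. Without irradiated knockout replicate 1, 6 of 7 members were called higher in the knockout, as were 1106 of 12568 genes.

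**Figure D2:**
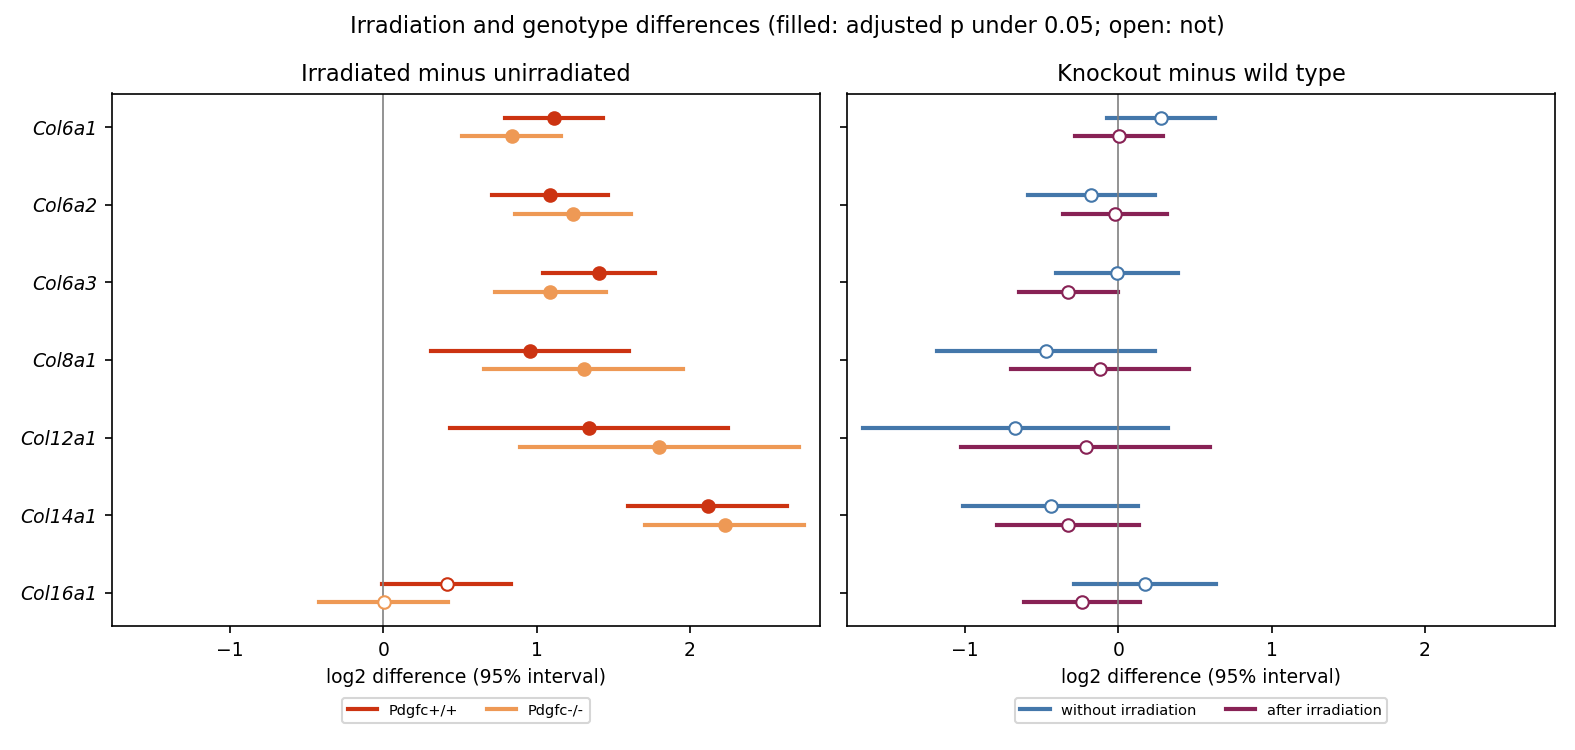
Estimated log2 differences of the 7 members in each comparison, with 95% confidence intervals from limma. The irradiation intervals lie above 0 in both genotypes except for Col16a1, while the intervals of the genotype differences include 0 for every member except Col6a3 after irradiation, which ends at -0.00064.

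The members did not all change by the same amount within an array. For each of the 21 pairs of members, the difference in irradiation change was tested with an exact permutation test (two-sided, 100 assignments of the irradiation label within genotype, smallest possible p 0.01), adjusted over the 21 pairs. This passed 0.05 for 10 pairs. Col14a1 rose more than each collagen VI chain, by 1.20 log2 units over Col6a1, 1.01 over Col6a2 and 0.92 over Col6a3, and more than Col8a1, by 1.04 (exact permutation adjusted p = 0.026 for each). Col16a1 fell short of Col6a1 (0.77), Col6a2 (0.95), Col6a3 (1.04) and Col14a1 (1.96) at the same exact permutation adjusted p, and of Col12a1 by 1.36 (exact permutation adjusted p = 0.042).

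Within collagen VI, Col6a3 rose more than Col6a1 by 0.27 log2 units (0.29 in the wild type and 0.25 in the knockout, exact permutation adjusted p = 0.042). These 2 genes have 1 probe set each, and the 2 probe sets of Col6a2 differed by more, with changes of 1.08 and 0.47 in the wild type. The test compares probe sets and cannot tell unequal RNA change from unequal probe response. The difference between Col6a2 and Col6a1 was 0.19 (exact permutation adjusted p = 0.31) and that between Col6a3 and Col6a2 was 0.087 (exact permutation adjusted p = 0.595). Col14a1 and Col12a1 differed by 0.60 (exact permutation adjusted p = 0.26). With the mean of all probe sets of a gene in place of the brightest, 5 of the 10 pairs passed. The other 5 were Col6a1 with Col6a3 (exact permutation adjusted p = 0.06), Col14a1 with Col6a1 (0.07), Col6a2 (0.06) and Col6a3 (0.115), and Col12a1 with Col16a1 (0.07). Without any 1 irradiated knockout array, Col6a1 with Col6a3 and Col6a2 with Col16a1 (exact permutation adjusted p = 0.078 for each) and Col12a1 with Col16a1 (0.127) did not pass either. Averaged over both genotypes, the 3 chains rose by 0.97 (Col6a1), 1.16 (Col6a2) and 1.25 (Col6a3) log2 units.

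**Figure D3:**
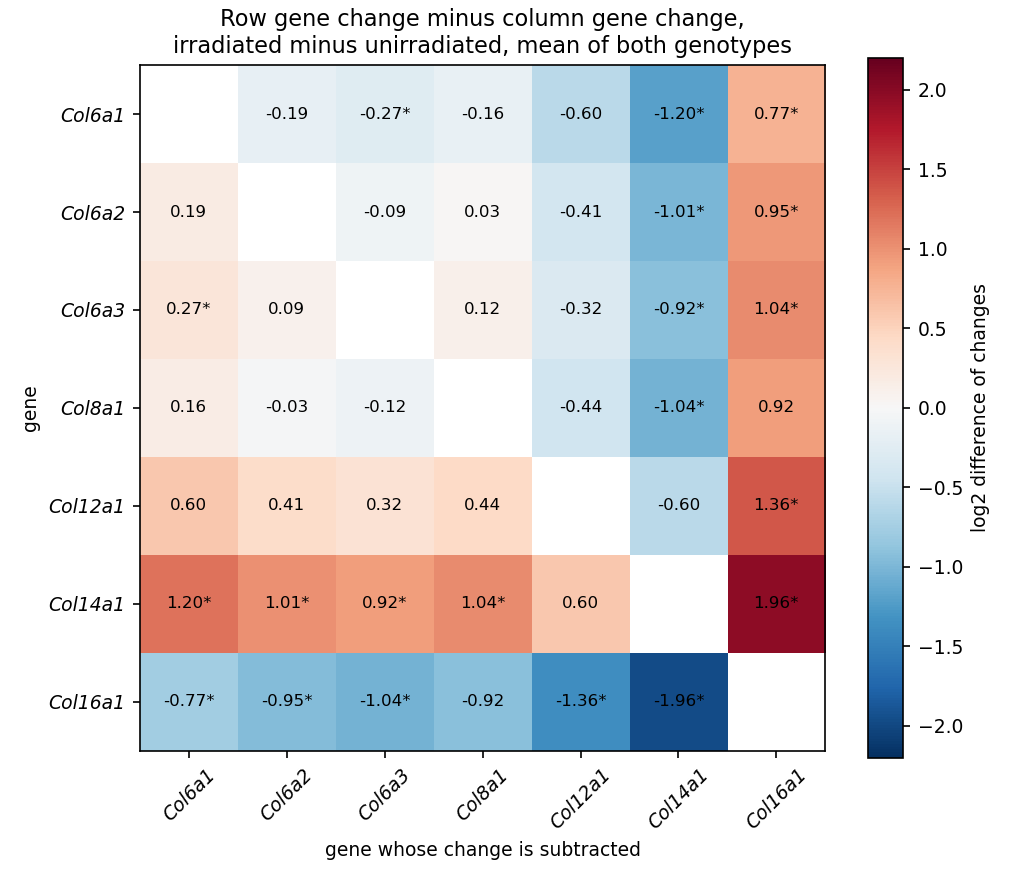
Difference in irradiation change (log2, averaged over genotypes) for each of the 21 pairs of members, row minus column, with pairs past an adjusted exact permutation p of 0.05 marked. Marked cells lie mostly in the rows and columns of Col14a1 and Col16a1; Col6a1 with Col6a3 is the only marked pair among the collagen VI chains.

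No difference between the genotypes passed the test for these genes. In unirradiated mice 0 of 7 members were called, where 1.23% of all genes were. The knockout minus wild-type estimates ran from -0.67 for Col12a1 (95% confidence interval -1.67 to 0.32) through -0.47 for Col8a1 (-1.18 to 0.24) and -0.44 for Col14a1 (-1.01 to 0.12) to 0.28 for Col6a1 (-0.07 to 0.63). The estimate nearest 0 was that of Col6a3, at -0.0084 (-0.41 to 0.39).

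After irradiation, 0 of 7 members and 0 of 12568 genes differed between genotypes by the limma test, while 500 genes (3.98%) had an unadjusted p under 0.05. Col6a3 was lower in the knockout by an estimate of -0.33 (95% confidence interval -0.65 to -0.00064), with an unadjusted limma p of 0.0496 and an adjusted limma p of 0.9999. The groups compared also differed in sex pattern, female on 3 of 3 wild-type and 1 of 3 knockout arrays. On the female-pattern arrays alone, 1 knockout against 3 wild type and so with no test, the difference was -0.20 for Col6a3 and -0.12 for Col14a1. Over all arrays the estimates for the other 6 members lay between -0.33 for Col14a1 and 0.0030 for Col6a1. The interval was narrowest for Col6a1 (-0.28 to 0.29) and widest for Col12a1 (-1.03 to 0.60), followed by Col8a1 (-0.70 to 0.46).

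The difference between the irradiation changes of the genotypes (knockout minus wild type) was called for 0 of 7 members, and for 0.207% of all genes. It ran from -0.41 for Col16a1 (95% confidence interval -1.01 to 0.19) to 0.46 for Col12a1 (-0.83 to 1.75). Col14a1, with the largest rise, had 0.11 (-0.62 to 0.85). The order of the group means from lowest to highest was the same for Col6a2, Col6a3, Col8a1, Col12a1 and Col14a1: unirradiated knockout, unirradiated wild type, irradiated knockout, irradiated wild type. For none of these did neighbouring groups of the same irradiation status differ by the test. In Col6a1 the unirradiated wild type was lowest and both irradiated groups had a mean of 10.96, and in Col16a1 the 4 means lay between 8.70 and 9.11.

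Some genes had more than 1 probe set that passed the filter on low values. The second Col6a2 probe set, 1426947_x_at, whose suffix marks probes that also match other transcripts, changed by 0.47 in the wild type (limma adjusted p = 0.059) and 0.61 in the knockout (limma adjusted p = 0.021), with the p adjusted over all 25883 probe sets tested. The representative 1452250_a_at gave 1.08 and 1.24. For Col12a1, probe set 1427391_a_at had differences of 3.07 and 3.03, set beside the 1.34 and 1.80 of the representative. It lay above the array median on 4 arrays, all of them irradiated, and read 4.12 to 4.90 on the 4 unirradiated ones. It thus passed the filter only through the arrays where it was high, and its differences are a description.

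For Col14a1, 1428455_at had differences of 2.47 in the wild type and 2.14 in the knockout, where the representative had 2.11 and 2.23. It lay above the array median on 1 of 4 unirradiated arrays, at 5.35 to 6.83, and on all 6 irradiated ones. The second Col8a1 probe set, 1418440_at, gave 0.88 in the wild type (limma adjusted p = 0.073) and 0.51 in the knockout (limma adjusted p = 0.26), below the 0.96 and 1.31 of the representative. The other 4 probe sets, 2 of Col12a1 and 1 each of Col14a1 and Col8a1, lay below the array median on all 10 arrays and were not tested. Which transcripts each probe set reports was not analysed here.

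**Figure D4:**
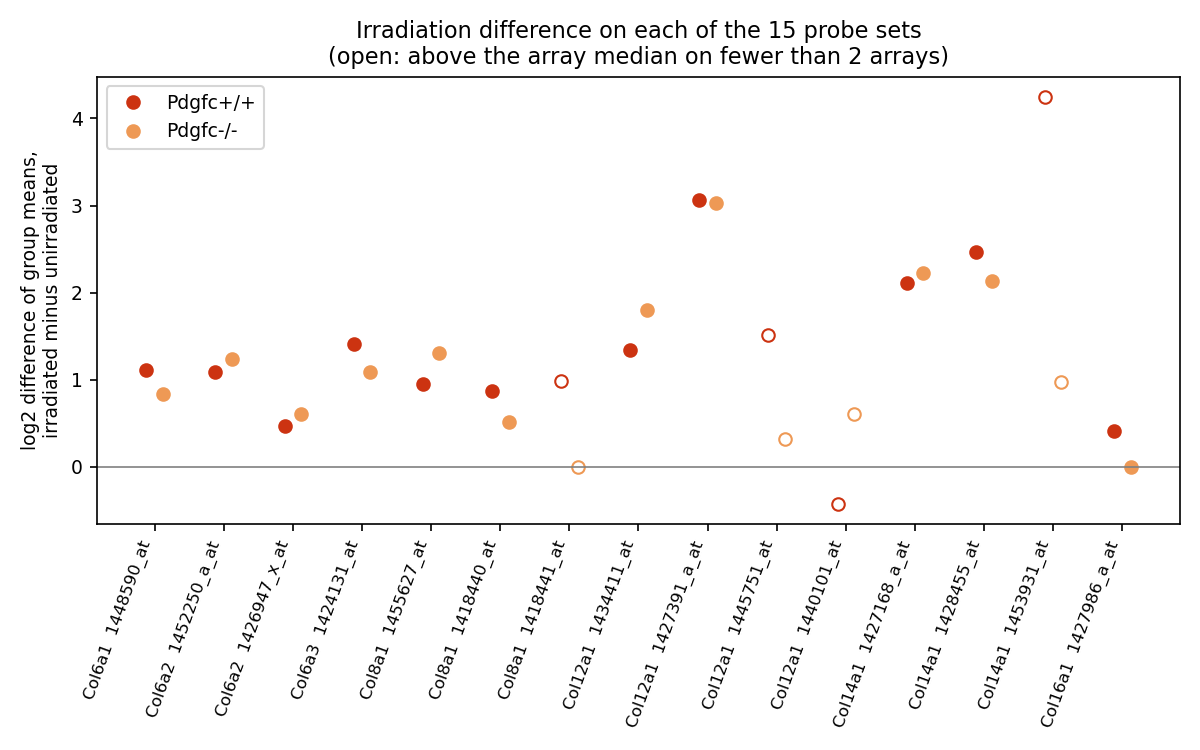
Irradiated minus unirradiated group means (log2) on each of the 15 member probe sets, in Pdgfc+/+ and Pdgfc-/- mice; open points are probe sets that did not pass the filter on low values. 1427391_a_at of Col12a1, which was dim without irradiation, lies above the representative of its gene, and 1426947_x_at of Col6a2 lies below it.

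Among the receptors through which cells bind collagen VI, Antxr1 rose in both genotypes. Of 8 listed receptors 6 were tested, and 3 were higher in the wild type, 1 in the knockout and 0 lower in either, where 15.8% and 14.0% of all genes were higher. Antxr1, a cell-surface receptor (TEM8) for collagen VI, rose by 1.64 in the wild type (SE 0.20, limma adjusted p = 7.6e-04) and by 1.29 in the knockout (SE 0.20, limma adjusted p = 0.0023). The integrin subunit Itga1 passed in the wild type (0.58, limma adjusted p = 0.047) and had 0.30 in the knockout without passing. The third receptor counted in the wild type, the integrin subunit Itga2, lay above the array median on the 3 irradiated wild-type arrays and on 0 of the other 7, so its difference of 1.23 there rests on a dim baseline. Antxr2, the receptor mutated in hyaline fibromatosis, passed only with the genotypes averaged (0.65, limma adjusted p = 0.025). Cspg4, the NG2 proteoglycan, had -0.06 in the wild type and 0.02 in the knockout, and Itgb1 had 0.31 and 0.11.

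Of 18 listed partners of collagen VI and the FACITs, 13 were tested, and 12 were higher in the wild type (15.8% of all genes) and 10 in the knockout (14.0% of all genes), with 0 lower. Their median change was 1.61 with the genotypes averaged. Lum, a small proteoglycan of fibrils, rose by 3.73 and 3.20 (limma adjusted p = 1.3e-04 and 1.2e-04). Dcn, decorin, which binds collagen VI and XIV, rose by 2.40 and 2.30 (limma adjusted p = 1.2e-04 and 7.3e-05). Bgn, biglycan, which organises collagen VI networks, rose by 2.38 and 1.94, and Col1a2, a chain of the main fibril collagen, by 2.08 and 2.01. Hspg2, perlecan of basement membranes, had -0.16 and 0.09 and was not called. Lum and Dcn are also among the fibroblast markers counted below.

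Of 11 other genes of the collagen VI, VIII, X and FACIT groups, 3 were tested, and 0 were called in the wild type or in the knockout. Col6a4, an additional collagen VI chain, had differences of 1.82 and 1.71, and passed only with the genotypes averaged (1.77, limma adjusted p = 0.027). It lay above the array median on 1 of 4 unirradiated and 5 of 6 irradiated arrays, so that it entered the test mainly through the irradiated arrays. Col8a2 had -0.32 and -0.31, and Col20a1 had 0.46 and 0.44. The genes Col6a5, Col10a1, Col9a1, Col9a2, Col9a3, Col19a1 and Col22a1 did not pass the filter on low values, and Col6a6 was not on the array.

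**Figure D5:**
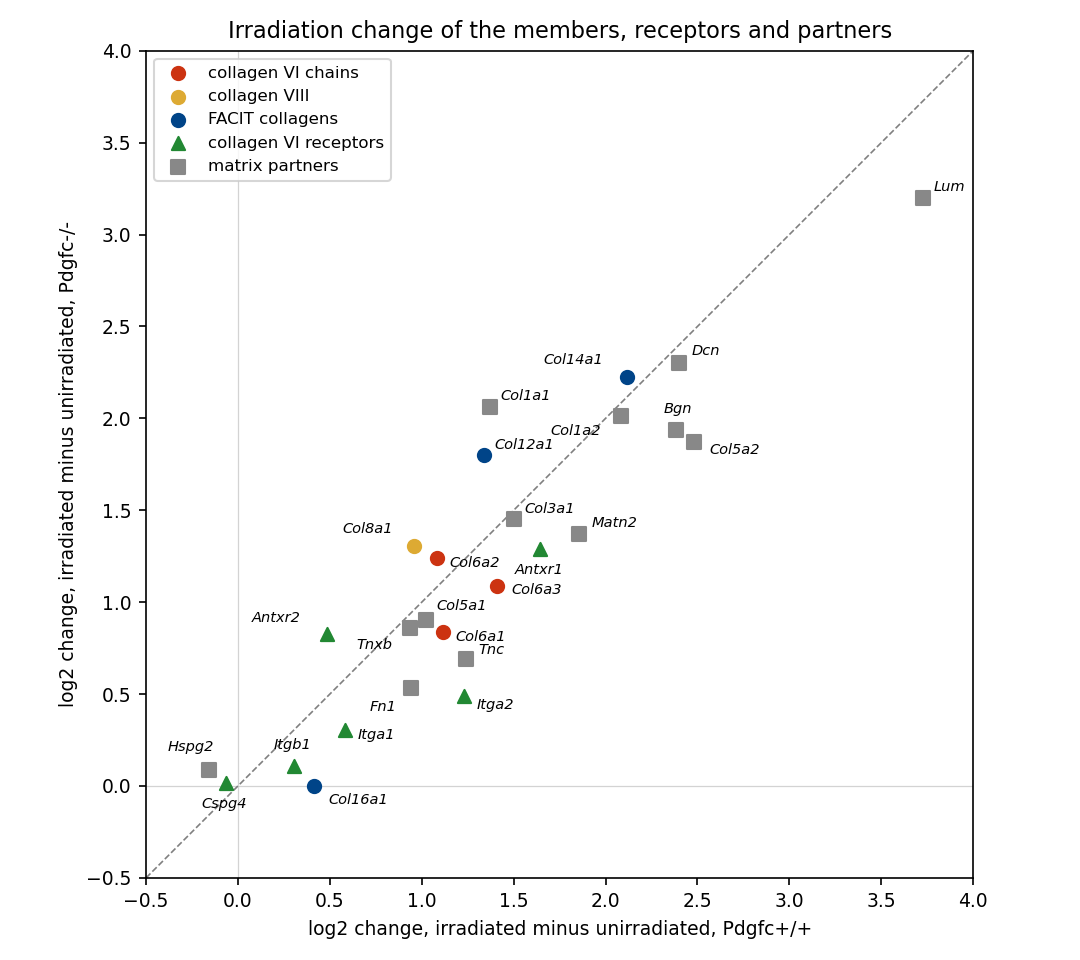
Irradiation change in the knockout (vertical, log2) against that in the wild type (horizontal, log2) for the members, the collagen VI receptors and the matrix partners; the dashed line marks equal change. Lum lies farthest from 0 on both axes, Col14a1 lies beside Col1a2, and Col16a1, Cspg4 and Hspg2 lie near 0.

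The genes with profiles most like each member over the 10 arrays were found as those with the smallest root-mean-square distance between centred log2 values. For Col14a1 these were Bgn (0.23 log2 units), Col1a2 (0.23) and Glipr2 (0.24), against a spread of Col14a1 around its own mean of 1.10. For Col6a1 they were Srgap2 (0.096), Il6st (0.11) and Taf1b (0.12), for Col6a2 Eng (0.15), Slc43a3 (0.16) and Tgfbr2 (0.17), and for Col6a3 Hfe (0.13), Rbp4 (0.14) and Eng (0.14). Eng, a co-receptor for TGF-beta ligands, was thus near both Col6a2 and Col6a3. Col8a1 was nearest Rnls (0.23), Dok2 (0.26) and Ptgir (0.26), and Col12a1 was nearest Ccn1 (0.30), Pcdhb7 (0.33) and Thy1 (0.36), a fibroblast marker. Col16a1, which varied little, was nearest Psap (0.098), Inip (0.099) and Peak1 (0.10). All the arrays are shared between the profiles, and these distances are a description.

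Markers of several cell types moved with irradiation alongside the collagens. For the counts that follow, 15.8% of all genes tested were higher in the wild type and 14.0% in the knockout. Of 10 fibroblast markers, 9 were higher in the wild type and 8 in the knockout, and their summed level ran from 13.0 to 13.2 (log2) on unirradiated and from 15.3 to 15.5 on irradiated wild-type arrays. In the knockout it ran from 13.0 to 13.1 and from 15.01 to 15.55. All 8 macrophage markers were higher in both genotypes, from 12.2 to 12.4 against 15.1 to 15.4 in the wild type. Endothelial markers were higher for 6 of 7 tested in the wild type and 5 of 7 in the knockout. Adipocyte markers were higher for 4 of 6 tested in each genotype, and only 2 of the 6 lay above the median on every unirradiated array. Their summed level on unirradiated arrays was higher in the knockout than in the wild type. In that comparison 1 of the 6 was called higher (1.23% of all genes were called). For the interaction of genotype and irradiation 1 of the 6 was called lower (0.207% of all genes were called). Squamous epithelium markers were higher for 6 of 7 in the wild type and 7 of 7 in the knockout, and 0 of them lay above the median on every unirradiated array. The part of these cell types in the collagen values was not tested.

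Smooth muscle markers, which report the muscle coat, were called for 0 of 8 genes in either genotype, with a summed level between 16.04 and 16.60 on all arrays. Striated muscle markers were uneven, with 5 of 10 higher in the wild type (15.8% of all genes) and 1 of 10 in the knockout (14.0%). Their summed level was 12.82 to 13.51 in the unirradiated knockout. Their part in the genotype differences was not tested. On irradiated wild-type replicate 3 the summed striated muscle level was 9.87, within the 9.52 to 9.96 of the unirradiated wild type. On replicates 1 and 2 of that group it was 15.79 and 14.38. The part of striated muscle in the collagen values was not tested. Colonocyte markers were lower for 6 of 10 in the wild type and 5 of 10 in the knockout. Of all 12568 genes tested, 1048 were lower in the wild type and 1194 in the knockout. Glial markers were lower for 1 of 4 tested in the knockout and called for 0 in the wild type. Krt19 was the only mesothelial marker tested, since Msln, Upk3b, Wt1 and Lrrn4 did not pass the filter on low values. It was not called in either genotype alone but was lower with the genotypes averaged (-0.58), as were 2008 of 12568 genes. The mean log2 value of all 5 markers was 6.15 to 6.44 on unirradiated and 6.67 to 8.29 on irradiated wild-type arrays. In the knockout it was 6.05 to 6.19 and 6.37 to 7.05. A change of the mesothelium cannot be read from Krt19 alone.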

How the data were processed

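RNA from 10 samples was hybridised to Affymetrix arrays. According to the series' design text and the submitters' processing notes, MAS5 signals came from the Affy packages in R; no version is stated. The deposited values are log2 signals of the authors, a scale judged from the values. No further scaling or pseudocount was applied, and detection calls were not used.

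Symbols came from the platform annotation, updated by gene ID; 34945 probe sets had 1 gene, 932 several and 9160 none. Genes exceeding the array median on 2 or more arrays were tested. In limma 3.58.1 (R 4.3.3), the 4 group means were fitted jointly, leaving 6 residual degrees of freedom, with a trended prior and Benjamini-Hochberg adjustment over 12568 genes; the fit was tested on simulated data. P-values measure only the spread between these samples, which may be technical. Named were the members, up to 3 listed genes past the threshold by smallest adjusted p in each comparison (or the 1 of smallest p), and the 3 nearest profiles of each member. Further listed genes, those near 0 among them, were named after their values were seen. The members and lists were chosen with earlier results of these data known. Alternatives covered normalization, pseudocounts, filters, the variance model, array weights, probe set choice, a replicate block, the samples fitted, the sex pattern and left-out arrays. Promoters came from RefSeq on GRCm38.p6; protein sequences were not used here.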

Additional observations from a re-analysis of the deposited data

How the results depend on the processing

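Col6a1, Col6a2, Col6a3 and Col14a1 kept their direction and their call after irradiation in the knockout under all 22 alternatives run, and in the wild type under 21 of 22, the exception being the sex pattern as a covariate (limma adjusted p from 0.108 to 0.146). Col8a1 and Col12a1 were less stable, as given with their values. In the wild type, the Col8a1 call was also lost without wild-type irradiated replicate 3 (0.68, limma adjusted p = 0.095) and the Col12a1 call without irradiated replicate 1 (0.93, limma adjusted p = 0.075). In the knockout, Col8a1 was lost with the mean of its probe sets (0.61, limma adjusted p = 0.34) and without unirradiated replicate 1 or 2. Col16a1 was called under no alternative. With that mean Col12a1 did not pass the filter on low values. A group left with 1 array took its spread from the others. The causes were not tested.

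The number of genes called for irradiation in wild type was 3028, and it was 4870 over every probe set, 16 with the sex pattern and 1323 to 3469 with 1 array left out (1323 without unirradiated replicate 1, 1812 without irradiated replicate 2). For irradiation in knockout 2957 became 5148, 1706 and 1189 to 3596 (1189 and 1292 without unirradiated replicates 1 and 2, 1699 without irradiated replicate 1, 1890 without replicate 3). For irradiation averaged over genotypes 4905 became 8813 and 818. For knockout against wild type without irradiation 154 became 276 over every probe set and 41 to 255 with 1 array left out, and quantile normalization turned the split of 53 higher and 101 lower into 30 and 99. For knockout against wild type after irradiation 0 became up to 3. For the interaction of genotype and irradiation 26 became 16 with a pseudocount of 64, 10 without the variance trend, 49 over every probe set, 4 with the sex pattern and 14 to 35 with 1 array left out. The difference between 2 members in the irradiation response passed for 10 pairs, for 5 with the mean of probe sets and for 0 to 12 with 1 array left out. The 0 came from leaving out an unirradiated array. That left 1 array in its group and fewer assignments to permute, so it decides nothing about the pairs. Every probe set tests more features; the other causes were not tested.

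Deviations from the group mean of arrays with the same replicate number correlated at -0.20 to 0.16. With 2 or 3 arrays in a group, this cannot show whether the numbers pair the arrays. The replicate block gave 1995 genes for irradiation in wild type, 70 for knockout against wild type without irradiation and 3 for the interaction. It left 4 of 7 members called higher in the wild type, where 1410 of the 1995 genes were higher. In the knockout it left 6 of 7 called, as in the main fit.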
